A study of Mus musculus with 53 samples.

Results

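Interferon-stimulated genes (ISGs) were followed in the sciatic nerve (SCN) of mice with diet-induced prediabetes and type 2 diabetes. A list of 34 ISGs was named by symbol, out of 49568 genes with a value. All 34 had a row and passed the filter on low values, a mean log2 value of at least 3.32 (10 on the linear scale), in every comparison. RNA of 53 SCN samples from male C57BL/6J mice was sequenced, and each sample was taken as 1 mouse because the labels do not number the animals, so p-values measure the spread between these samples. SD mice ate a control diet, with 13% of kcal from fat per the labels (the study's methods give a lower share), and there were 5 samples at 16 weeks of age and 8 at 24 weeks. HFD mice (n = 7 at each age) ate a diet with 60% of kcal from fat from 5 weeks of age and are the prediabetes model. HFD-STZ mice (n = 5 at 16 weeks, n = 8 at 24 weeks) ate the same diet and were injected with streptozotocin, which damages insulin-producing beta cells, at 75 mg/kg at 12 weeks of age and at 50 mg/kg 3 days later, and are the type 2 diabetes model. In the dietary reversal (DR) groups, HFD mice (HFD-DR, n = 7) and HFD-STZ mice (HFD-STZ-DR, n = 6) were returned to the control diet at 16 weeks for 8 weeks and were examined at 24 weeks. The labels do not describe an SD group injected with streptozotocin, so diet and streptozotocin cannot be told apart in comparisons of HFD-STZ with SD mice.

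Type I interferons bind a receptor on the cell surface and activate a complex that contains STAT2 and IRF9 and binds the interferon-stimulated response element (ISRE) in the promoters of ISGs. Interferon gamma acts at a different element, the GAS, and induces IRF1 and guanylate-binding proteins strongly. IRF7 is itself induced by interferon and drives further type I interferon transcription, and many ISG products bind viral RNA, block translation or tag proteins with ISG15. ISGs are also expressed at a low level in tissues without infection.

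Upstream sequences of a few ISGs are shown because the results turn on these genes and because an ISRE-like motif marks several of them. RefSeq held promoters (250 bases before to 50 after each transcription start, GRCm38.p6) for 25 of the 34 genes. The ISRE core, in which both half-sites are present with the spacing that is usual for the element, was searched on both strands with overlapping matches allowed. It was present for 13 of these 25 genes (52%), against 3.99% of all 27025 genes with a promoter. The GAS motif, which reads the same on both strands, was present for 6 of the 25 (24%), against 9.55% of all genes. Each stretch below begins 160 bases before the RefSeq start and stops at that start or before the first base of the gene in GENCODE M21, and is written 5′ to 3′ on the strand of the gene, with bases that match the ISRE core, on either strand, in capitals. The stretches lie at chr4:156200819-156200978 on the minus strand (Isg15, a ubiquitin-like protein), chr19:34583369-34583528 and chr19:34640729-34640870 on the plus strand (Ifit3 and Ifit1, which bind viral RNA), chr3:142559884-142560025 on the plus strand (Gbp3, a guanylate-binding protein) and chr7:141266482-141266584 on the minus strand (Irf7).
Isg15: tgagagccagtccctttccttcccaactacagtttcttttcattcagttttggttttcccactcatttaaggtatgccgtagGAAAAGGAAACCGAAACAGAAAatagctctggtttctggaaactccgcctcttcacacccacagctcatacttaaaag
Ifit3: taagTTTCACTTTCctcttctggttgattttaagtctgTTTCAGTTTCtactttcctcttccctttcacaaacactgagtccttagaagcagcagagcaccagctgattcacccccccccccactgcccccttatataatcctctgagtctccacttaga
Ifit1: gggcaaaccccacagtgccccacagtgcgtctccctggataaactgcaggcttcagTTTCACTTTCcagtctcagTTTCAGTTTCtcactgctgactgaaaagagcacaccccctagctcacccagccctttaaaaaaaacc
Gbp3: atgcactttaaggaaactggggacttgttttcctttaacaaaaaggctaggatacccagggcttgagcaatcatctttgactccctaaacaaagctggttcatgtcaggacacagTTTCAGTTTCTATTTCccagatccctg
Irf7: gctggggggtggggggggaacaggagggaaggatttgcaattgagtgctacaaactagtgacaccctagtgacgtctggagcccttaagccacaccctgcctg

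In Isg15, 3 overlapping matches of the ISRE core began at positions -78, -72 and -66, counted from the start with the base before it as -1. Ifit3 had matches at -156 and -122 and Ifit1 at -104 and -85. Gbp3 had overlapping matches at -45 and -39. A match was not found in the 300-base window of Irf7. Related members lie close together in the genome: Ifit1, Ifit2 and Ifit3 on chromosome 19, Oas1a, Oas2 and Oas3 as well as Oasl1 and Oasl2, a separate pair, on chromosome 5, and Gbp2 and Gbp3 on chromosome 3. Some members share sequence with another gene, so their values may mix both. Of the 100-base stretches of Oas1a, 40.9% were also found in Oas1g, and of those of Ifit3, 31.7% in Ifit3b. Herc6 and Rtp4 instead overlap another annotated gene on the same strand. Gm45193 covered 13.7% of the exonic bases of Herc6 and held 20.9% of its stretches. Gm45338 covered 13.9% of the exonic bases of Rtp4 and held 11.2% of its stretches.

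Depth per gene is unknown, since the deposited values are log2 values rather than counts. The median over all genes tested lay between 9.04 and 9.33 in every sample, and correlations between samples ran from 0.916 to 0.994. Markers of Schwann cells (6 of 6 present) had mean log2 values of 17.03 to 17.98 in all samples. Adipocyte and skeletal muscle markers varied widely between mice of a group, from 7.07 to 17.43 for the 6 muscle markers among SD mice at 24 weeks. Among the ISGs, 3 samples stood apart. Replicate 4 of the 24-week HFD group had a mean over the 34 genes of 9.85 and was the highest of its group for 27 of them. Replicate 1 of the 16-week HFD group (mean 9.51) was the highest of its group for 25, and replicate 7 of the 24-week SD group (mean 9.57) for 18. Comparisons that use the first of these samples are given with and without it where a count or median moved. That sample was singled out by the ISG values themselves. Fits without it therefore show how far a result depends on 1 sample and are not independent support.

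Across the 8 groups, ISGs tended to be highest in HFD-STZ mice at 24 weeks, but 1 gene, Irf7, passed the test for a difference among groups. The highest of the 8 group means was that of the 24-week HFD-STZ group for 22 of the 34 ISGs, against 14% of all 18069 genes tested, and for 0 of the 34 was that group the lowest. The 34 genes varied together between mice of a group (median r of 0.39 over their pairs). Counts of members, here and in the comparisons that follow, are therefore not counts of independent observations. The HFD-STZ-DR group had the highest mean for 0 ISGs and the lowest for 7, against 8.14% and 8.32% of all genes, and the 16-week SD group had the lowest for 12, against 23.2%. In limma's F-test over all 8 groups, 1 of 34 ISGs had an adjusted p-value under 0.05 (Irf7, adjusted p = 0.0132), against 1.97% of all genes. At an unadjusted p-value under 0.05 there were 4 of 34 (Irf7, Gbp3, Ifi44 and Ifit1), against 14.6% of all genes.

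**Figure D1:**
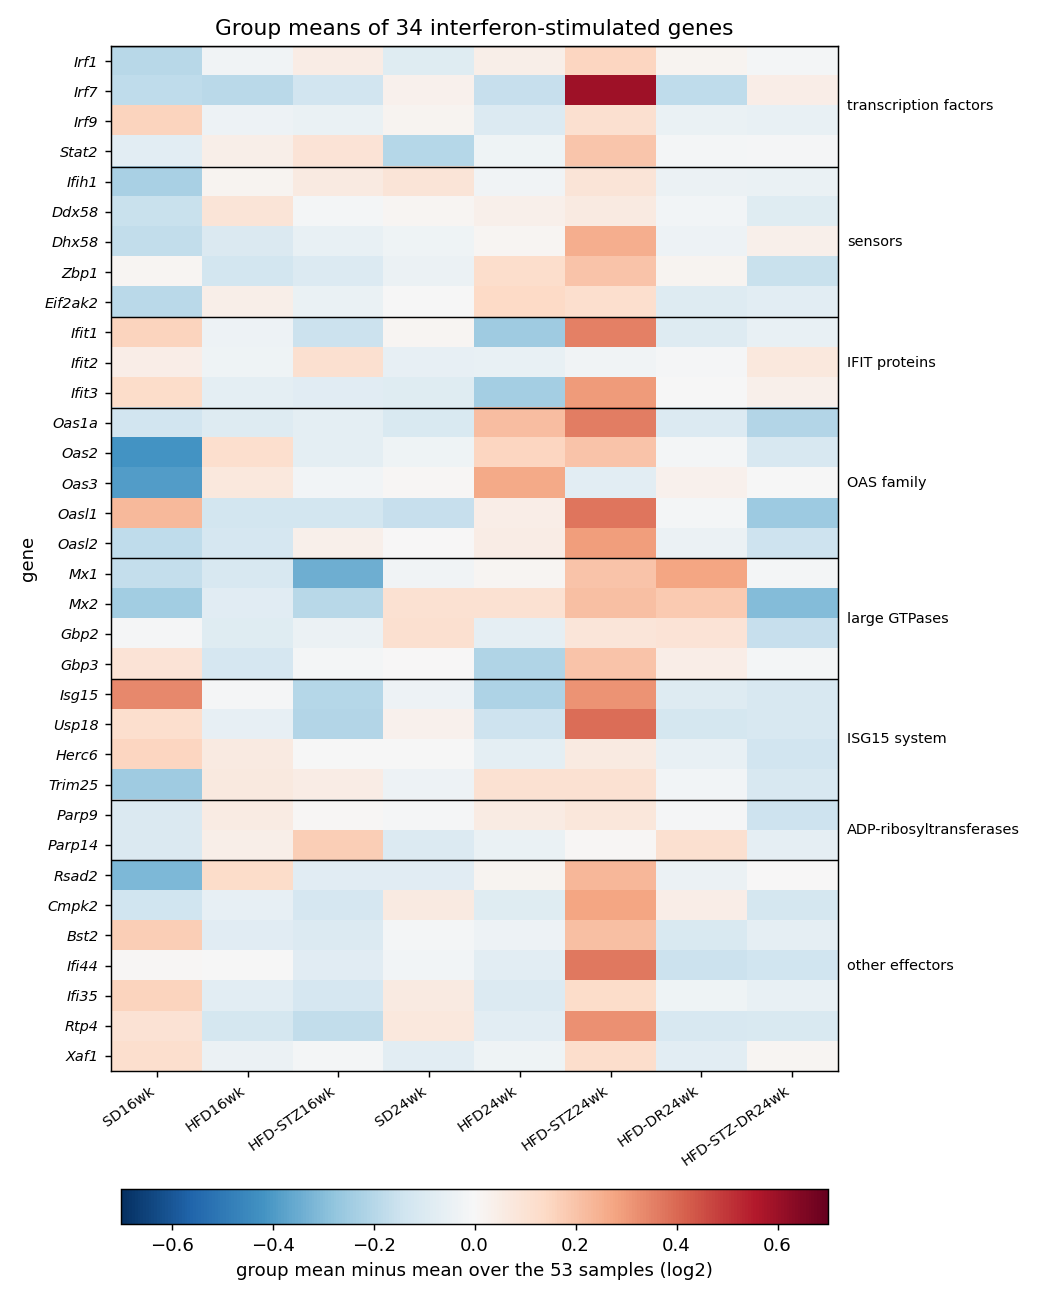
Each cell shows the mean of 1 group (columns) minus the mean over the 53 samples (log2) for 1 of the 34 ISGs (rows, ordered by role). The column of HFD-STZ mice at 24 weeks is red for most genes, and Irf7 is the darkest cell.

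Averaged over the 34 genes, the HFD-STZ group at 24 weeks had a mean of 9.36 ± 0.19 (SD, n = 8), with mice between 9.13 and 9.59. Means of the other 7 groups lay between 9.08 (HFD-STZ-DR) and 9.15 (SD at 24 weeks). Every one of these groups overlapped the HFD-STZ group, and the within-group SD of this mean was 0.21. Between mice of a group, ISGs were also more variable than other genes: the median within-group SD was 0.292 for the 34, 0.260 for all genes and 0.220 for the 5012 genes of similar level.

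**Figure D2:**
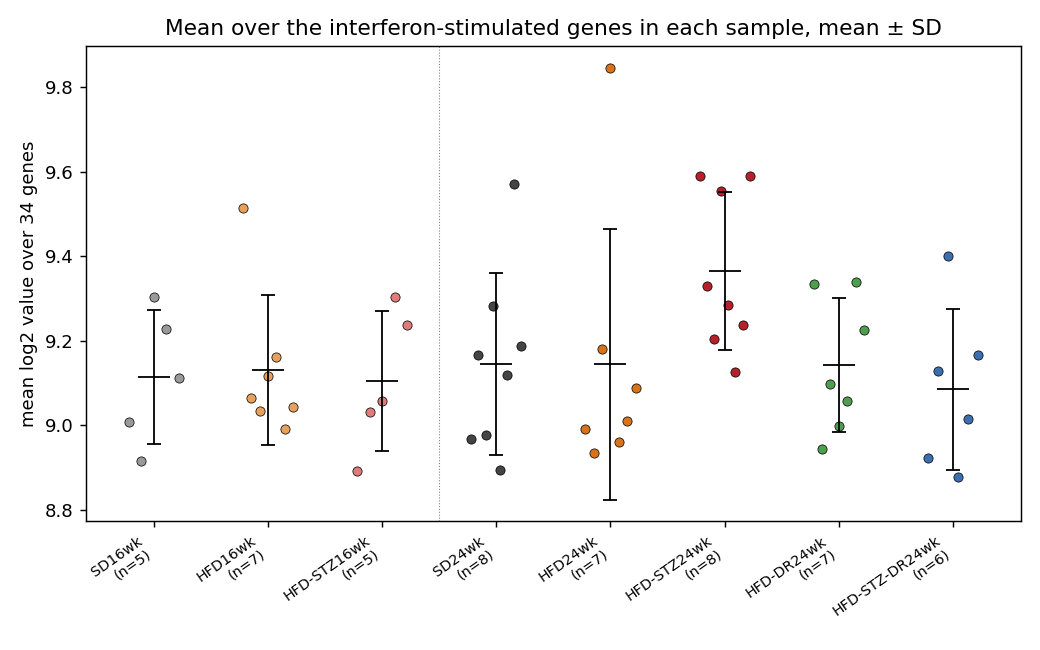
Each point is the mean log2 value over the 34 ISGs in 1 sample, by group, with the group mean ± SD in black. The 8 samples of HFD-STZ mice at 24 weeks lie between 9.13 and 9.59, and 1 sample of the 24-week HFD group lies at 9.85.

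Irf7, a transcription factor that amplifies the type I interferon response (chr7:141262706-141266481, minus strand, protein coding), was the member with the clearest pattern. At 16 weeks its log2 value was 9.71 ± 0.09 in SD (n = 5), 9.70 ± 0.17 in HFD (n = 7) and 9.75 ± 0.20 in HFD-STZ mice (n = 5). In the 5 HFD-STZ mice at 16 weeks Irf7 read 9.61, 9.54, 9.72, 9.83 and 10.05. At 24 weeks, HFD-STZ mice had 10.48 ± 0.15 (n = 8; lowest 10.19, median 10.51, highest 10.71). SD mice of that age had 9.92 ± 0.32 (n = 8; 9.48, 9.86 and 10.45). HFD mice had 9.73 ± 0.60 (n = 7; 9.18, 9.53 and 11.04), and the value of 11.04 came from replicate 4, with the next at 9.68. After DR, Irf7 was at 9.71 ± 0.29 in HFD-DR mice (n = 7; 9.35, 9.66 and 10.23) and 9.93 ± 0.38 in HFD-STZ-DR mice (n = 6; 9.53, 9.89 and 10.47). All 8 HFD-STZ mice at 24 weeks lay above all 5 HFD-STZ mice at 16 weeks, whereas they overlapped the SD, HFD, HFD-DR and HFD-STZ-DR mice of their age.

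The order of Irf7 by group mean was HFD-STZ at 24 weeks, then HFD-STZ-DR and SD at 24 weeks, and then the remaining groups between 9.70 and 9.75, which lay within each other's spread. Against SD mice of the same age, Irf7 was higher by 0.56 in HFD-STZ mice (SE 0.12), with 8 of 8 mice above the SD median and an exact permutation p of 0.000932 (two-sided). Its limma adjusted p over all genes was 0.263 and so missed the threshold. Over the 16 fits that left out 1 sample each, its limma adjusted p ran from 0.0443 to 0.585 and missed the threshold in 15. The fit that passed left out replicate 4 of the SD group (difference 0.64, adjusted p = 0.0443).

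**Figure D3:**
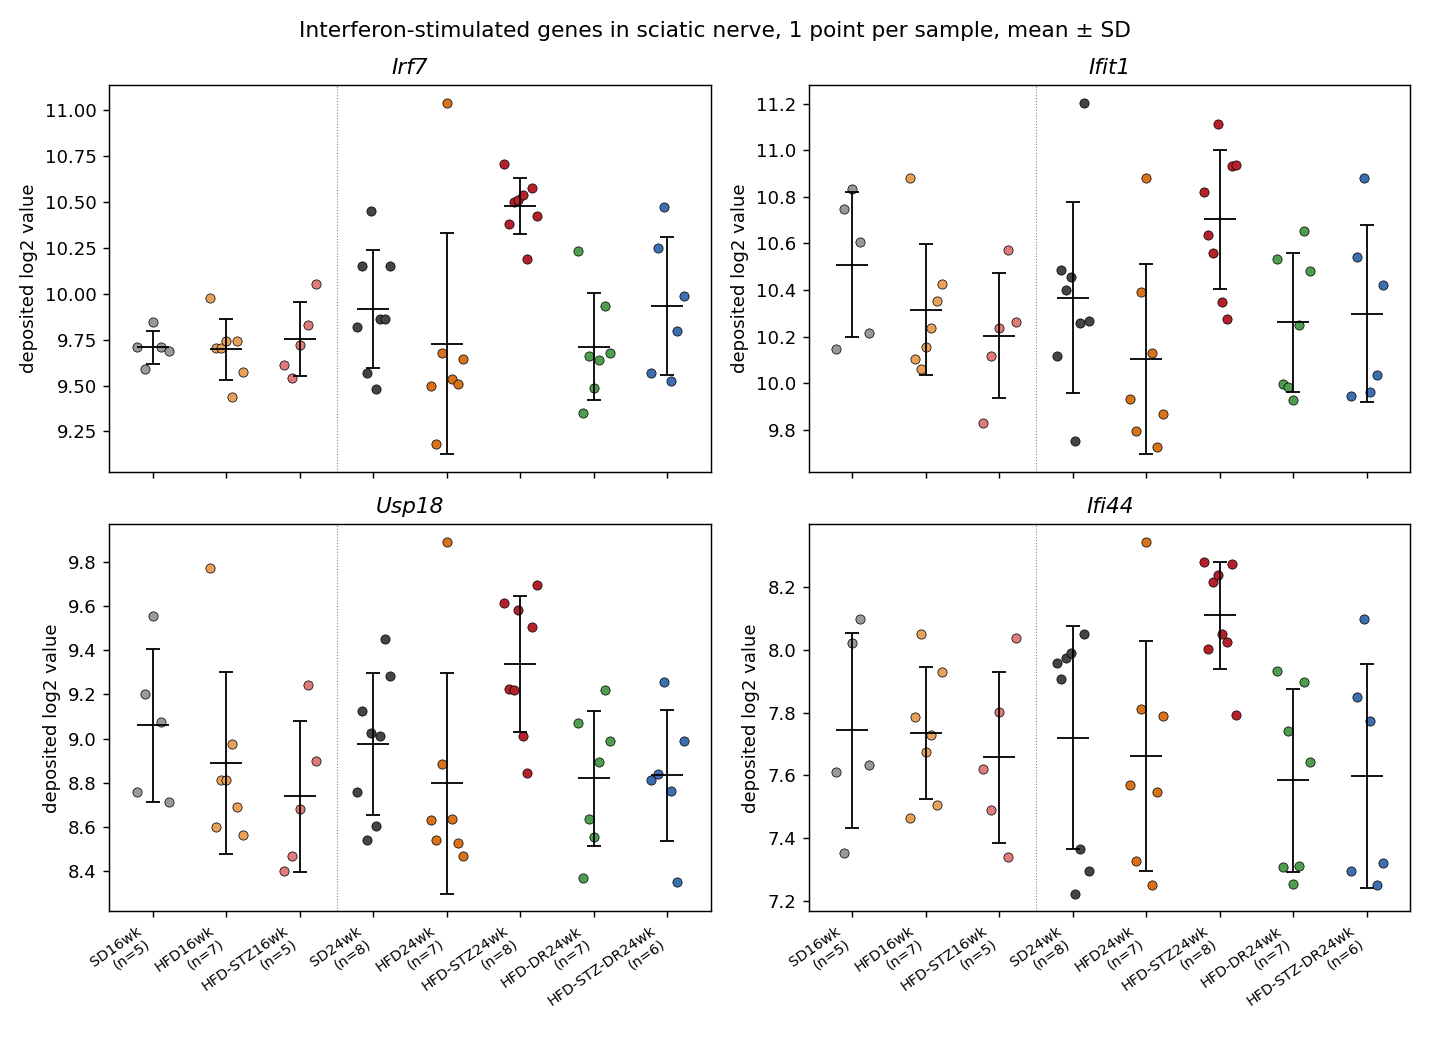
Deposited log2 values of Irf7, Ifit1, Usp18 and Ifi44 in each of the 53 samples, by group, with the mean ± SD in black. In HFD-STZ mice at 24 weeks Irf7 lies between 10.19 and 10.71, and replicate 4 of the 24-week HFD group lies above every other mouse of its group for all 4 genes.

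HFD-STZ and SD mice at 24 weeks were compared to see how the type 2 diabetes model differs from controls. Of the 34 ISGs, 32 were higher in HFD-STZ mice, against 50.2% of all 17846 genes tested, and the median log2 difference was 0.22, against 0.00 over all genes. Since the 34 varied together between mice, this count does not stand for 34 separate observations. At an unadjusted limma p-value under 0.05, 11 ISGs were higher and 0 lower, against 3.3% of all genes higher and 2.69% lower. None of the 34 had an adjusted p-value under 0.05, which 0.0336% of all genes had, and 0 ISGs had all HFD-STZ mice above all SD mice (0.0392% of all genes did).

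By role, 3 of the 4 transcription factors were among the 11: Irf7, Stat2, the partner of IRF9 in the ISRE-binding complex (0.39, SE 0.16), and Irf1, the main target of interferon gamma among them (0.24, SE 0.10). Irf9 was higher by 0.09. The OAS family, whose OAS members make the messenger that activates RNase L, had 3 of 5 members among them. Oas1a was 7.56 ± 0.30 in HFD-STZ (7.0, 7.56 and 7.96) and 7.10 ± 0.35 in SD mice (6.61, 7.14 and 7.60), a difference of 0.46 (SE 0.16, exact permutation p = 0.0137, adjusted p = 0.795). The 2 groups overlapped, with 4 of 8 HFD-STZ mice above every SD mouse. Oasl1, which represses translation of IRF7, was 7.34 ± 0.25 against 6.80 ± 0.50 (difference 0.53, SE 0.19, exact permutation p = 0.0169, adjusted p = 0.801), with 3 of 8 HFD-STZ mice above every SD mouse. Oasl2 was higher by 0.29 (SE 0.13), and Oas3 was the one family member that was lower, by a log2 difference of -0.08.

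In the ISG15 system, Isg15 and Usp18, the protease that removes ISG15 and dampens receptor signalling, were among the 11. Usp18 was 9.34 ± 0.31 in HFD-STZ (8.84, 9.37 and 9.69) and 8.98 ± 0.32 in SD mice (8.54, 9.02 and 9.45), a difference of 0.36 (SE 0.15, exact permutation p = 0.0404, adjusted p = 0.815). Isg15 differed by 0.35 (SE 0.16), and 8 of 8 HFD-STZ mice lay above the SD median. Among the sensors of foreign nucleic acid, Dhx58 (LGP2, a regulator of the RIG-I family) differed by 0.29 (SE 0.11; 8.04 ± 0.15 against 7.75 ± 0.23). The median of the 5 sensors was 0.12. Among other effectors, Ifi44 was 8.11 ± 0.17 (7.79, 8.13 and 8.28) against 7.72 ± 0.36 (7.22, 7.93 and 8.05), a difference of 0.39 (SE 0.14, exact permutation p = 0.0117, adjusted p = 0.801). Here 5 of 8 HFD-STZ mice lay above every SD mouse. Bst2 (tetherin, which holds budding virus at the cell surface) differed by 0.22 (SE 0.10).

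The IFIT proteins, large GTPases and ADP-ribosyltransferases had 0 members among the 11. Ifit1 was 10.70 ± 0.30 in HFD-STZ and 10.37 ± 0.41 in SD mice, a difference of 0.34 with an exact permutation p of 0.0850. Among SD mice the highest Ifit1 value, 11.21, exceeded the highest HFD-STZ value, 11.12. Gbp3 differed by 0.20 and Parp14, an ADP-ribosyltransferase, by 0.11, with exact permutation p-values of 0.105 and 0.410. The remaining members without an unadjusted p-value under 0.05 (Irf9, Ifih1, Ddx58, Zbp1, Eif2ak2, Ifit2, Ifit3, Oas2, Oas3, Mx1, Mx2, Gbp2, Herc6, Trim25, Parp9, Rsad2, Cmpk2, Ifi35, Rtp4 and Xaf1) differed by between -0.08 (Oas3) and 0.38 (Ifit3). The median difference was 0.22 over the 13 genes with the ISRE core motif and 0.21 over the 12 without it.

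**Figure D4:**
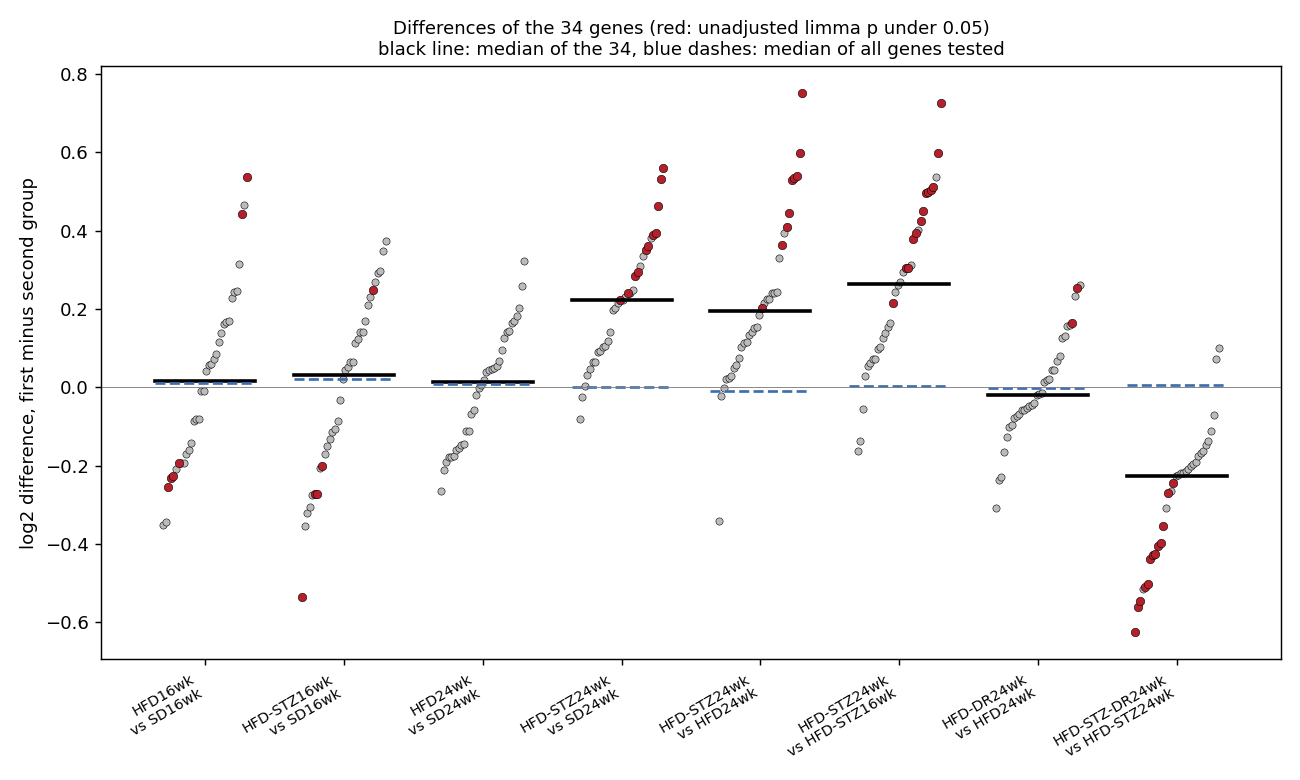
Log2 differences of the 34 ISGs in 8 comparisons, ordered by size within each, with genes at an unadjusted limma p under 0.05 in red, the median of the 34 as a black line and the median of all genes tested as a blue dashed line. The black line lies at 0.22 for HFD-STZ against SD at 24 weeks and at -0.23 for HFD-STZ-DR against HFD-STZ, and near 0 for HFD against SD at both ages.

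HFD-STZ mice at 24 weeks were next compared with HFD mice of that age, which share the diet but did not receive streptozotocin. In this comparison 31 of 34 ISGs were higher in HFD-STZ mice (47.9% of all genes were), with a median of 0.19, against -0.01 over all genes. Of these, 9 had an unadjusted p-value under 0.05, against 1.42% of all genes, and 0 were lower at that level, against 4.17%. No ISG and 0 of all 18117 genes had an adjusted p-value under 0.05. Irf7 was higher by 0.75 (SE 0.20, exact permutation p = 0.00622, adjusted p = 0.785). Ifit1 was higher by 0.60 (SE 0.17, exact permutation p = 0.00870), with 3 of 8 HFD-STZ mice above every HFD mouse and 8 of 8 above the HFD median. Gbp3 was higher by 0.41 (SE 0.11, exact permutation p = 0.00420), 10.54 ± 0.18 against 10.13 ± 0.25.

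Replicate 4 of the HFD group decided how many ISGs passed. Without it, 16 of 34 ISGs were higher at an unadjusted p-value under 0.05, against 1.33% of all genes in the same fit, and the median difference was 0.32. Irf7 then differed by 0.97 (adjusted p = 0.000397) and was the only ISG past the threshold, as 0.00552% of all genes were. Next came Usp18 (0.72), Rtp4, a chaperone of receptors that is induced by interferon (0.60), Gbp3 (0.48) and Ifit1 (0.73), each with an adjusted p of 0.362. Over the 15 fits of HFD-STZ against HFD mice that left out 1 sample each, the limma adjusted p of Irf7 ran from 0.000397 to 0.934. It missed the threshold in 14 of them. In the test over 8 groups, leaving out replicate 4 of the HFD group gave 2 ISGs past the threshold, Irf7 (adjusted p = 4.73e-05) and Rtp4 (adjusted p = 0.0497), and 12 at an unadjusted p-value under 0.05, against 1.69% and 13.1% of all genes. Without replicate 1 of the 16-week HFD group the same test gave 1 and 10 ISGs, against 1.82% and 14.6%. Replicate 4 of the 24-week HFD group had the highest mean of macrophage markers of its group (11.67, next 11.24) and the highest of adipocyte markers (14.15, against 11.62 to 14.09 in the other 6). It was also highest for T cell markers (4.58, next 4.28) and for plasmacytoid dendritic cell markers without Bst2 (6.65, next 6.50). For markers of Schwann cells, skeletal muscle, B cells, neutrophils and endothelium it was not the highest. The part of these lists in its ISG values was not tested.

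Age was examined within each group sampled at both ages. In HFD and HFD-STZ mice, the older mice had also spent longer on the diet. In HFD-STZ mice they were also examined longer after streptozotocin. These times cannot be told apart from age. HFD-STZ mice at 24 weeks had 31 of 34 ISGs higher than HFD-STZ mice at 16 weeks, with a median of 0.26, against 0.00 over all genes. Of these, 13 had an unadjusted p-value under 0.05, against 5.85% of all genes, and 0 were lower at that level, against 6.69%. Irf7 had the smallest p, a difference of 0.73 (SE 0.10, adjusted p = 0.0630), and no ISG and 0 of all 17963 genes passed the threshold. Irf7 and Isg15 were the ISGs with all 8 older mice above all 5 younger ones, against 0.512% of all genes. Isg15 was 9.44 ± 0.23 at 24 weeks (9.24, 9.33 and 9.76), and in the 5 younger mice Isg15 read 8.45, 8.99, 9.02, 9.22 and 8.96. The exact permutation p of both was 0.000777, the smallest that this design allows. Bst2 (0.31, SE 0.08), Rtp4 (0.50, SE 0.13) and Usp18 (0.60, SE 0.17) followed. Between the ages, 0 ISGs in SD mice and 0 in HFD mice had an unadjusted p-value under 0.05, against 5.43% higher and 5.04% lower of all genes in SD and 2.68% and 3.22% in HFD mice. With adjustment, 0 of the 34 passed in either, against 0 genes in SD and 0.0654% of all genes in HFD mice. Without replicate 4 of the older HFD group, 2 ISGs were lower than at 16 weeks at an unadjusted p-value under 0.05, against 2.29% of all genes (Ifit1, -0.34, and Herc6, -0.22), and the median was -0.10. Adipocyte markers were higher at 24 weeks in SD mice (6 of 6, median 1.81), and in HFD mice 0 of 6 differed at that level. Schwann cell markers were lower at 24 weeks for 3 of 6 in SD mice (median -0.32) and 2 of 6 in HFD mice (median -0.19). In HFD-STZ mice 1 of 6 was lower (median -0.24), and 0 were higher in any of these groups. Of the T cell markers, 2 of 3 were higher in SD mice. The part of these lists in the ISG values was not tested.

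DR was compared with continued HFD in both models. In the type 2 diabetes model, 32 of 34 ISGs were lower after reversal (HFD-STZ-DR minus HFD-STZ), while 51.9% of all genes were higher, and the median difference was -0.23, against 0.01 over all genes. At an unadjusted p-value under 0.05, 13 ISGs were lower and 0 higher, against 4.51% of all genes lower and 1.97% higher. None passed the adjusted threshold, as 0.084% of all genes did. This comparison shares the HFD-STZ mice with the comparison with SD, so that the size of both depends on the same 8 samples. The same 8 samples also enter the comparison with HFD mice of that age and the comparison with younger HFD-STZ mice. They enter the ranking of group means and every interaction that includes HFD-STZ mice as well. The direction shared by these results is therefore not independent support, since high values in these 8 samples would move all of them.

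Irf7 was lower in HFD-STZ-DR mice, with a log2 difference of -0.55 (SE 0.14, exact permutation p = 0.00300, adjusted p = 0.187), and 6 of 6 mice lay below the HFD-STZ median. Oasl1 showed the largest difference, -0.63 (SE 0.16, exact permutation p = 0.00300, adjusted p = 0.211), from 7.34 ± 0.25 to 6.71 ± 0.35 (6.28, 6.74 and 7.28). Oas1a (-0.56, SE 0.18) and Oasl2 (-0.44, SE 0.13) were also among the 13, so the OAS family had 3 of 5. Ifi44 was 7.60 ± 0.36 in HFD-STZ-DR mice (7.25, 7.55 and 8.10), a difference of -0.51 (SE 0.15, exact permutation p = 0.00500, adjusted p = 0.270). For Usp18 the difference was -0.50 (SE 0.16) and for Rtp4 -0.43 (SE 0.13). All 6 HFD-STZ-DR mice lay below the HFD-STZ median for Irf7, Oasl1, Oasl2, Usp18 and Ifi44, and 0 ISGs were without overlap between the groups, against 0.185% of all genes.

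The remaining members at this level were Bst2, Ifit1, Gbp2, Cmpk2, a nucleotide kinase of mitochondria, Isg15 and Zbp1, a sensor of Z-form nucleic acid that can trigger cell death, with differences from -0.24 to -0.43. Ifit2 (0.10) and Oas3 (0.07) were the 2 members that were higher. With each sample centred on its median, 8 rather than 13 ISGs were lower at an unadjusted p-value under 0.05. Leaving out single samples gave between 7 and 18.

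Adipocyte markers moved in the same comparison: 5 of 6 had a lower level after reversal (unadjusted p-value under 0.05), the list had a median difference of -2.07, and their mean ranged from 9.40 to 12.23 in HFD-STZ-DR and from 11.48 to 14.09 in HFD-STZ mice. Macrophage markers had 0 of 6 at that level with a median of -0.26, and ranged from 9.91 to 10.60 and from 9.71 to 11.15. Their part in the ISG differences was not tested. Since this is bulk RNA, fewer cells of a type and less RNA per cell cannot be told apart.

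In the prediabetes model, the median over ISGs was -0.02 in HFD-DR against HFD mice, and 2 of 34 were higher at an unadjusted p-value under 0.05, against 2.15% of all genes, with 0 lower, against 4.57%. None passed after adjustment, as 0.0108% of all genes did. These were the guanylate-binding proteins Gbp2 (10.74 ± 0.09 against 10.58 ± 0.16, difference 0.16, SE 0.08, exact permutation p = 0.0449, adjusted p = 0.733) and Gbp3 (10.38 ± 0.21 against 10.13 ± 0.25, difference 0.25, SE 0.12, exact permutation p = 0.0594, adjusted p = 0.735). Ifit3 followed with 0.23 (SE 0.13). Without replicate 4 of the HFD group the median was 0.11 and 3 ISGs were higher, against 1.36% of all genes (Gbp3, 0.33, Ifit3, 0.29, and Gbp2, 0.19), with 0 lower. In the comparison of all 14 mice 3 of 6 adipocyte markers were lower and 1 higher after reversal (median -1.08), and 2 of 6 macrophage markers were lower. Skeletal muscle markers moved further: 4 of 6 were higher after reversal and 0 lower (median 2.58). The part of these lists in the ISG differences was not tested. Of HFD-DR against SD mice, 0 ISGs differed at an unadjusted p-value under 0.05 in either direction, against 3.71% higher and 1.43% lower of all genes. Of HFD-STZ-DR against SD mice, 1 was lower, Gbp2 (-0.27, SE 0.12, adjusted p = 0.508), against 4.67% of all genes, and 0 were higher, against 4.49%, while 6 of 6 adipocyte markers were lower (median -1.48). Between the DR groups, Gbp2 was again the one ISG at this level, 10.49 ± 0.13 in HFD-STZ-DR against 10.74 ± 0.09 in HFD-DR mice, a difference of -0.26 (SE 0.07, exact permutation p = 0.00350, adjusted p = 0.998), against 2.1% of all genes lower, and 0 ISGs were higher, against 1.48%.

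HFD alone did not separate from SD at 24 weeks. The median over the 34 ISGs was 0.01, and 0 were higher or lower at an unadjusted p-value under 0.05, against 5.54% and 3.51% of all genes. After adjustment 0.121% of all genes passed, and 0 of the 34. The smallest p-values were those of Gbp3 (-0.21, SE 0.13, adjusted p = 0.617), Gbp2 (-0.18, SE 0.11) and Ifi35, a partner of N-MYC interactor (-0.16, SE 0.11). This too depended on replicate 4 of the HFD group: without it the median was -0.12 and 6 ISGs were lower at an unadjusted p-value under 0.05, against 3.65% of all genes in the same fit, among them Irf7 (-0.41), Ifit1 (-0.39), Usp18 (-0.36) and Rtp4 (-0.35), with adjusted p-values of 0.374 to 0.511.

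At 16 weeks, differences from SD mice went in both directions. In HFD mice 2 of 34 ISGs were higher and 4 lower at an unadjusted p-value under 0.05, against 4.98% and 3.57% of all genes. After adjustment 0 of the 34 passed, against 0.00557% of all genes. Rsad2 (viperin, which blocks viral RNA synthesis) was 9.66 ± 0.30 in HFD and 9.22 ± 0.26 in SD mice, a difference of 0.44 (SE 0.15, exact permutation p = 0.0278, adjusted p = 0.498). Irf9 differed by -0.19 (SE 0.08) and Ifi35 by -0.23 (SE 0.09). Without replicate 1 of the HFD group, 1 ISG was higher and 9 were lower, against 3.96% and 2.52% of all genes. In the comparison of all 12 mice 5 of 6 adipocyte markers (median 2.19) and 2 of 3 B cell markers (median 1.21) were higher at an unadjusted p-value under 0.05, and their part in the ISG differences was not tested.

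In HFD-STZ mice at 16 weeks, 1 ISG was higher and 4 were lower than in SD mice, against 3.99% and 4.42% of all genes. Isg15 had the largest difference, -0.54 (SE 0.17, exact permutation p = 0.0159, adjusted p = 0.545), with SD values of 9.36, 9.66, 9.89, 9.26 and 9.14 against 8.45 to 9.22. Irf9 was the one ISG without overlap, since all 5 HFD-STZ mice lay below all 5 SD mice, against 1.36% of all genes (difference -0.20, SE 0.07, exact permutation p = 0.00794, the smallest 5 against 5 can give). Ifi35 and Bst2 each differed by -0.27, and Irf1 was higher by 0.25. HFD-STZ against HFD mice at 16 weeks gave 0 ISGs at this level, against 1.99% higher and 2.9% lower of all genes. Without replicate 1 of the HFD group 3 were higher, against 2.72%, and 0 lower.

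Whether the differences themselves changed with age or model was tested by interactions. Age here cannot be told apart from time on the diet and time after streptozotocin. With all samples no ISG passed the adjusted threshold in any of 4, nor did any other gene (0 of 17871 to 18161 genes). At an unadjusted p-value under 0.05, the HFD-STZ minus SD difference was more positive at 24 than at 16 weeks for 12 of 34 ISGs, against 2.09% of all genes, led by Isg15 (0.89, SE 0.26) and Bst2 (0.49, SE 0.16), with Irf7 at 0.52 (SE 0.18). For Isg15 and Bst2 the difference changed sign. Isg15 was at 8.93 in HFD-STZ and 9.46 in SD mice at 16 weeks, and at 9.44 and 9.09 at 24 weeks. Bst2 was at 10.60 and 10.87, and then at 10.91 and 10.68. With the runs of library numbers as a covariate there were 7 instead of 12. The HFD-STZ minus HFD difference was larger at 24 weeks for 6, against 1.02% (Ifit1 0.71, SE 0.24). The DR difference was more negative in HFD-STZ than in HFD mice for 5, against 0.699%: Gbp2 (-0.41, SE 0.13), Gbp3 (-0.47), Cmpk2 (-0.53), Ifit3 (-0.50) and Ifit1 (-0.56). The HFD difference changed with age for 0, against 0.829% larger and 0.84% smaller. The last 3 counts depended on replicate 4 of the 24-week HFD group. Without it, the HFD-STZ minus HFD difference was larger at 24 weeks for 14 ISGs, against 2.05% of all genes, and Irf7 passed the threshold (0.92, adjusted p = 0.00903). The DR difference was then more negative in HFD-STZ mice for 17, against 0.941%, with Irf7 at -0.75, and the HFD difference was smaller at 24 weeks for 1, Irf7 (-0.40), against 0.99%.

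Other genes of the pathway were taken from a list of 54, of which 47 passed the filter in each of these comparisons. All 6 interferon genes (Ifnb1, Ifna2, Ifna4, Ifng, Ifnl2 and Ifnl3) stayed below the filter, with a mean over the 6 of at most 0.66 in any sample, so their differences were not detectable. The 4 receptor chains had means of 11.62 to 12.01. Against SD mice at 24 weeks, HFD-STZ mice had 2 of the 47 higher and 0 lower (unadjusted p-value under 0.05, against 3.3% and 2.69% of all genes) and a median of 0.06. In HFD-STZ-DR against HFD-STZ mice, 17 of the 47 were lower and 0 higher, against 4.51% and 1.97% of all genes, with a median of -0.19, and 12 of the 17 were among the 24 further interferon targets. Ifi27l2a had the smallest p among them (-1.84, SE 0.35, adjusted p = 0.0719), followed by Lgals3bp, a secreted glycoprotein (-0.90, SE 0.22), and Ifitm3, which blocks viral entry (-0.33, SE 0.08). Against SD mice HFD-STZ-DR mice had 16 of these 47 lower, against 4.67% of all genes, and 0 of the 47 passed the adjusted threshold in any comparison.

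Marker lists of immune cells were examined beside the ISGs. In HFD-STZ against SD mice at 24 weeks, the 6 macrophage markers had a median of -0.15, with 1 lower and 0 higher at an unadjusted p-value under 0.05, and the adipocyte markers had a median of 0.66 with 0 of 6 at that level. T cell markers (3 of 5 past the filter) had a median of -0.01 and B cell markers (2 of 3) of 0.02. Of the 3 markers of plasmacytoid dendritic cells, major producers of type I interferon, the one higher was Bst2, which is itself an ISG, and Siglech differed by -0.49 (SE 0.26). Against HFD-STZ mice at 16 weeks, 4 of 6 adipocyte markers were higher at that level (median 1.37). None of these lists was at 0 in the files, and their part in the ISG differences was not tested.

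ISGs varied together between mice of a group. After each value was centred on its group mean, 522 of the 561 pairs of ISGs were positively correlated over the 53 samples, with a median r of 0.39, which describes samples that share their library and normalization. The share among pairs of other genes was not computed, so how unusual this count is cannot be said. Correlation with the mean of the other 33 was highest for Usp18 (r = 0.85), Rtp4 (0.84) and Zbp1 (0.83), and lowest for Irf1 (0.36), Xaf1, an inhibitor of XIAP (0.26), and Ifit2 (0.19). Irf7 had r = 0.76. Outside the list, the 10 genes most like the mean of the 34 were Phf11d (r = 0.77), Ifit3b (0.77), Gbp7 (0.76), Trim30a, Ifitm3, Ifi47, Emp3, Sdf2l1, Fcgr1 and Ccl2, the last with 0.67, while 95% of genes lay under 0.36.

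Among 8 chosen pairs, all 8 had a Benjamini-Hochberg adjusted permutation p-value under 0.05 over the 53 samples. Most of these pairs lay within a gene family or within 1 arm of the response, so the count does not show that the arms are linked. Pairs that joined an interferon gamma target to Irf7 or an IFIT gene were Irf1 with Irf7 and Gbp2 with Ifit3 (r = 0.43). Pairs of other genes were not tested beside them. Ifit1 and Ifit3, neighbours on chromosome 19, had Pearson's r = 0.87 (permutation p = 1e-05, the smallest 100000 permutations can give, adjusted p = 8e-05) and Spearman's rho = 0.86 (permutation p = 1e-05, adjusted p = 8e-05). For Irf7 and Isg15, r was 0.67 (permutation p = 2e-05, adjusted p = 8e-05) and rho 0.66 (permutation p = 2e-05, adjusted p = 8e-05). Without the 2 samples farthest from the median of the first gene, r was 0.86 and 0.57. Irf1 and Gbp2, both targets of interferon gamma, had r = 0.55 (permutation p = 0.00023, adjusted p = 0.00046) and rho = 0.58 (permutation p = 5e-05, adjusted p = 0.0001). Weakest was Irf1 with Irf7, r = 0.28 (permutation p = 0.0469, adjusted p = 0.0469) and rho = 0.29 (permutation p = 0.0485, adjusted p = 0.0485). Without the 3 samples that stood apart, r over the 8 pairs ran from 0.26 to 0.84. With the means of runs of consecutive library numbers also subtracted it ran from 0.23 to 0.88.

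**Figure D5:**
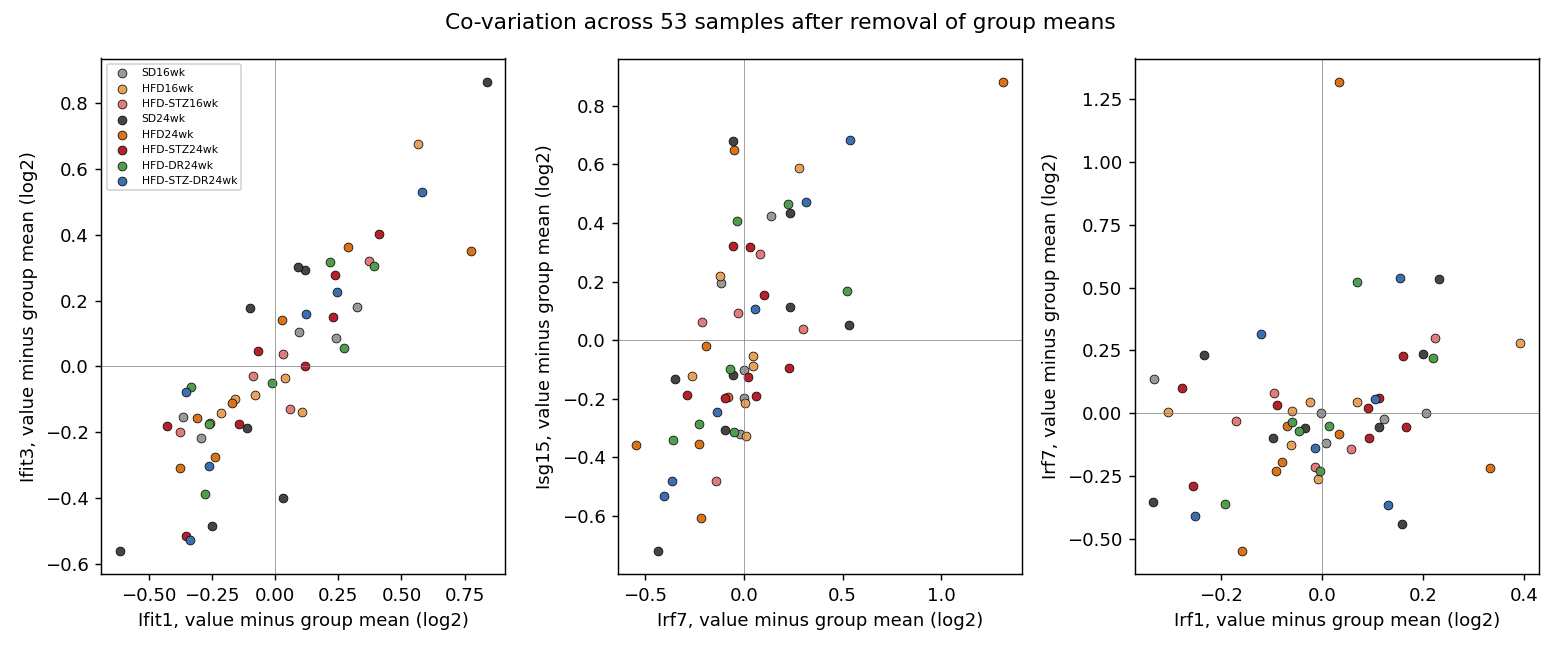
Values of 3 pairs of ISGs in the 53 samples after subtraction of the group mean (log2), coloured by group. Points follow a line closely for Ifit1 and Ifit3 (r = 0.87), less so for Irf7 and Isg15 (r = 0.67), and loosely for Irf1 and Irf7 (r = 0.28).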

How the data were processed

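Polyadenylated RNA of 53 SCN samples was sequenced. Per the submitters' processing notes the authors aligned reads to mm10 with HISAT2, counted them per gene with featureCounts and used DESeq2. Library kits differ between the labels (TruSeq mRNA) and the study's methods (SMART-Seq, which does not keep strand). The deposited values are log2 values, 1 per gene and sample, which the authors had normalized across samples by a method not given in the sources used here. They are not counts, so a count model was not used, and the reads behind each value are unknown. Each comparison was fitted with limma 3.58.1 (R 4.3.3) on its 2 groups, or on the 4 groups of an interaction, with empirical Bayes variances (trend option). The filter removed genes whose log2 values averaged less than 3.32, and 25 genes that exceeded 22 in a sample were dropped. Adjustment was by Benjamini-Hochberg over all genes tested (threshold 0.05). Single genes were also tested by two-sided exact permutation tests with Python 3.11.15 and scipy 1.17.1, and correlations with 100000 permutations within groups. The limma test was also run on simulated data in which genes were drawn independently, unlike the ISGs. Its recovery of small differences is not given here, so that run lends no support to the results above.

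Groups came from the labels. The 34 genes, the pathway list and the marker lists were chosen with earlier results of these data known. Given in full were, per role, the member with the smallest p in the 8-group test, any member past the threshold, and the 3 with the smallest p in each of 6 comparisons (both models against SD at each age, and both DR comparisons). Further members with an unadjusted p under 0.05 were picked once values were known. Alternatives comprised no filter, a filter applied to every sample, a joint fit of the 8 groups without and with runs of library numbers as a covariate, robust variances, no trend, keeping the genes above 22, median centring and leaving out each sample. The interactions of the HFD-STZ differences with age, all interactions without replicate 4 of the 24-week or replicate 1 of the 16-week HFD group, counts at unadjusted p-values and the correlations without the 3 samples that stood apart were added after the data were seen. Genes were placed with GENCODE M21, and promoters came from RefSeq. The ISRE core and the GAS motif were searched as exact patterns, with free bases in the spacer. The values of 1 gene of the pathway list are not reported here.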

Additional observations from a re-analysis of the deposited data

Results flagged for a closer look

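Values that lie far from the other samples of their group were sought among the 34 ISGs and their mean (Dixon's 95% limit). Of 280 sets of values, 30 were flagged (10.7%), where chance gives about 1 in 20. Replicate 4 of the 24-week HFD group held 11 of them, all high: its mean over the 34 genes was 9.85 (next 9.18), and it had Irf7 at 11.04, Irf9 at 11.12, Oas1a at 9.16, Oasl2 at 11.32, Usp18 at 9.89, Ifi35 at 10.63, Ddx58 at 10.86, Dhx58 at 8.79, Zbp1 at 9.27 and Rtp4 at 10.67. Replicate 1 of the 16-week HFD group held 7, all high: its mean over the 34 genes was 9.51 (next 9.16), with Ifit3 at 12.08, Usp18 at 9.77, Rtp4 at 9.73, Parp14 at 10.98, Gbp3 at 10.68 and Cmpk2 at 10.48. In replicate 1 of the HFD-DR group, Mx1 (6.07) and Mx2 (7.20) were high and Ifit2 (11.60) was low.

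Single high values were Irf1 at 11.18 in replicate 6 of the 24-week HFD group, Oas3 at 6.62 in replicate 4 of the 16-week HFD group, Ifi35 at 10.82 in replicate 7 of the 24-week HFD-STZ group and Herc6 at 8.86 in replicate 7 of the 24-week SD group. Single low values were Ifit2 at 11.91 and Parp14 at 9.85 in replicates 1 and 2 of the 16-week SD group, Ifih1 at 9.02 in replicate 7 of the 16-week HFD group, Dhx58 at 7.72 in replicate 6 of the 24-week HFD-STZ group and Eif2ak2 at 7.75 in replicate 1 of the 16-week HFD-STZ group. The genes of 1 sample vary together, so these flags are not independent.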

How the results depend on the processing

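The number of ISGs past the adjusted threshold was 0 in each of 14 comparisons and 4 interactions and 1 in the test over 8 groups, and 5 of the alternatives run changed it for 5 of these results. HFD-STZ against SD at 24 weeks gave between 0 and 1 when single samples were left out (1 without replicate 4 of the SD group, Irf7, log2 difference 0.64), and HFD-STZ against HFD at 24 weeks between 0 and 1 (1 without replicate 4 of the HFD group, Irf7, 0.97). HFD-STZ at 24 against 16 weeks gave 1 with each sample centred on its median (Irf7, 0.66, adjusted p = 0.0257) and between 0 and 1 without single samples (1 without replicate 6 of the older group, adjusted p = 0.0256, or without replicate 5 of the younger, adjusted p = 0.0213). The test over 8 groups gave between 1 and 2 without single samples, 2 of them without replicate 4 of the 24-week HFD group. The interaction of the HFD-STZ minus HFD difference with age gave between 0 and 1 (1 without that sample, Irf7, and 0 without replicate 1 of the 16-week HFD group). Other samples were not left out of the interactions. The adjusted p of Irf7 in the test over 8 groups stayed between 4.73e-05 and 0.0404 without single samples and was 0.0220 with the runs of library numbers as a covariate. No value reversed its direction among those called.

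Counts at an unadjusted p-value under 0.05 were less stable. HFD-STZ against SD at 24 weeks gave 7 to 16 ISGs higher without single samples and 9 to 11 under the other alternatives, and HFD-STZ against HFD at 24 weeks gave 7 to 16 and 9 to 11. HFD-STZ at 24 against 16 weeks gave 8 with the runs of library numbers as a covariate, instead of 13, and the interaction of the HFD-STZ minus SD difference with age 7 instead of 12. HFD at 16 weeks gave 1 to 9 lower without single samples. In the test over 8 groups median centring left 1 ISG at an unadjusted p-value under 0.05, instead of 4. The cause was not tested. No paired analysis was possible because the labels number neither replicates nor animals. The titles hold library numbers, and runs of these, which do not pair mice, entered as the covariate given above. A depth per gene could not be taken from the log2 values, so values of low genes such as Mx1 and Oas3 have no counting error here.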
